A study of Homo sapiens with 9 samples.

Results

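Cytoplasmic dynein 1 was described here through 10 genes: DYNLRB1 and the other listed subunits DYNLRB2, DYNLL1, DYNLL2, DYNLT1, DYNLT3, DYNC1H1, DYNC1I2, DYNC1LI1 and DYNC1LI2. They were taken by gene name from a table of 58735 genes, and all 10 names were found. The members were chosen by the measured level of DYNLRB1, which was higher with both GPX3 hairpins than with the scramble hairpin in these same libraries and is therefore given as a description without a test. The question was whether the rise extended to the other subunits. A low-count filter left 17023 genes for testing, among them 9 of the 10 subunits. DYNLRB2 did not pass it.

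The cells were OVCAR3, an established human line from a high-grade ovarian carcinoma, grown in RPMI medium with serum and insulin. Poly-A RNA was sequenced at 72 h of culture from 9 samples. In 3 of them the cells carried a scramble hairpin, the control, whose genotype the labels give as WT. In 3 they carried hairpin 76 and in 3 hairpin 78 (sh76 and sh78 here), both against GPX3 and both labelled as GPX3 knock-down. GPX3 encodes a secreted peroxidase. The scramble libraries serve as the control for both hairpins, so the 2 comparisons against them are not independent. The labels do not say whether replicates came from separate cultures, so p-values measure only the spread between these samples.

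Cytoplasmic dynein 1 is the motor that carries cargo along microtubules toward their minus ends and helps to position the nucleus and the mitotic spindle. Its heavy chains hold the motor domains. Intermediate chains and light intermediate chains attach to the heavy-chain tails, and light chains of 3 families (roadblock, LC8 and Tctex) bind as dimers to the intermediate chains. The dynactin complex and activating adaptors join the motor to its cargo.

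DYNLRB1 holds the 7-mer GTCGCCC in its 3′ UTR, and this sequence is shown because every gene closest to DYNLRB1 in pattern, named further on, holds it too. The 7-mer was taken from an earlier scan of 3′ UTRs in these same data, in which it marked genes that were lower with scramble, so its presence here is not independent of the readout. Capitals mark the 7-mer, and the window of 29 bases is given 5′ to 3′ on the transcript strand, from GENCODE release 29 (GRCh38).
DYNLRB1 (chr20:34540906-34540912, plus strand): cagttcactttGTCGCCCttggagaaagc
The search used these letters on the transcript strand alone, and a match is a description, not a binding site. The DYNLRB1 match lay in 3 of its 4 annotated transcripts, not all 3 of them coding. It lay at least 282 bases after the stop codon where it was in a 3′ UTR, and at least 46 bases before the transcript end. DYNC1H1 also holds the letters in a 3′ UTR, with log2 changes of 0.12 with sh76 and 0.11 with sh78. DYNLT3 holds them in a transcript, but not in a 3′ UTR. Neither gene was called without the replicate block. They were not found in the transcripts of DYNLRB2, DYNLL1, DYNLL2, DYNLT1, DYNC1I2, DYNC1LI1 or DYNC1LI2. Among 13632 tested coding genes with a 3′ UTR, 684 (5.02%) held the 7-mer in it. In the last 334 bases of the 3′ UTR, the length of DYNLRB1's own, it was held by 59 of 11782 genes (0.501%).

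Library totals lay between 14652965 and 21327562 counts, and the mitochondrial share between 4.24% and 5.16%. GPX3 fell with both hairpins, to −1.25 with sh76 and −2.12 with sh78 on the log2 scale (edgeR quasi-likelihood test, Benjamini-Hochberg adjusted p 0.00264 and 0.000125). All 8 markers of OVCAR3 were detected, with summed levels of 11653 to 12496 CPM (counts as a rate of each library's TMM-scaled total) with scramble, 10527 to 11435 with sh76 and 9631 to 10236 with sh78. PAX8 was called lower with sh76 (edgeR adjusted p 0.0196), and EPCAM, KRT8 and KRT18 with sh78 (0.00387, 0.00259 and 0.0105). KRT7 (log2 0.24 and 0.16) and MUC16 (0.18 and 0.06) had positive values with both hairpins and were not called. With the replicate number as a block, 2 of the 8 markers were called higher and 5 lower with sh76, where 20.4% of all genes were called. With sh78, 1 was then called higher and 4 lower, where 19.9% of all genes were called. The 4 markers of blood, endothelial, fibroblast and liver cells summed to 26.8 to 38.2, 30.8 to 45.8 and 33.5 to 45.7 CPM, nearly all of it COL1A1, and none was at 0 in every library. COL1A1 had log2 changes of 0.24 and 0.26 (edgeR adjusted p 0.577 and 0.557, under the block 0.0137 and 0.00496). The part of these shifts in the subunit results was not tested.

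DYNLRB1 (ENSG00000125971, chr20:34516409-34540958, plus strand) encodes a roadblock light chain, a homodimer that sits on the intermediate chains and is also used by cytoplasmic dynein 2. Its level was 38.0, 43.9 and 40.7 CPM in scramble replicates 1 to 3. It was 86.2, 82.3 and 88.5 CPM in the sh76 replicates and 86.5, 90.0 and 87.7 CPM in the sh78 replicates. Every hairpin library lay above every scramble library. The fitted fold was 2.09 with sh76 and 2.15 with sh78. Of all tested genes, 0.435% were called higher with both hairpins, and 3.57% had all libraries of both hairpins above all scramble libraries. Nothing is read from these shares for DYNLRB1 itself, since the rise chose it.

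Between the hairpins, DYNLRB1 had a log2 difference of 0.04 for sh78 against sh76 (95% interval −0.11 to 0.19), and its 2 hairpin groups overlapped. This too is a description, since DYNLRB1 was chosen for being high with both. GPX3 differed between them by −0.86 (SE 0.16, edgeR adjusted p 0.0194), lower with sh78 in 3 of 3 libraries matched by replicate number. The GPX3 difference lost its call in 5 of 9 fits when single libraries were left out (adjusted p 0.0604 to 0.0843 there), while its size stayed between −0.98 and −0.80.

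DYNLRB2, the second roadblock light chain, had 0 or 1 count in every library, where DYNLRB1 had 591 to 1855, so no change in it could be measured at this depth. Its coding sequence shares 70.5% of its bases with that of DYNLRB1 and the longest run common to their transcripts is 17 bases. The roadblock transcripts counted in these cells were therefore almost all DYNLRB1 in each of the 3 groups.

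**Figure D1:**
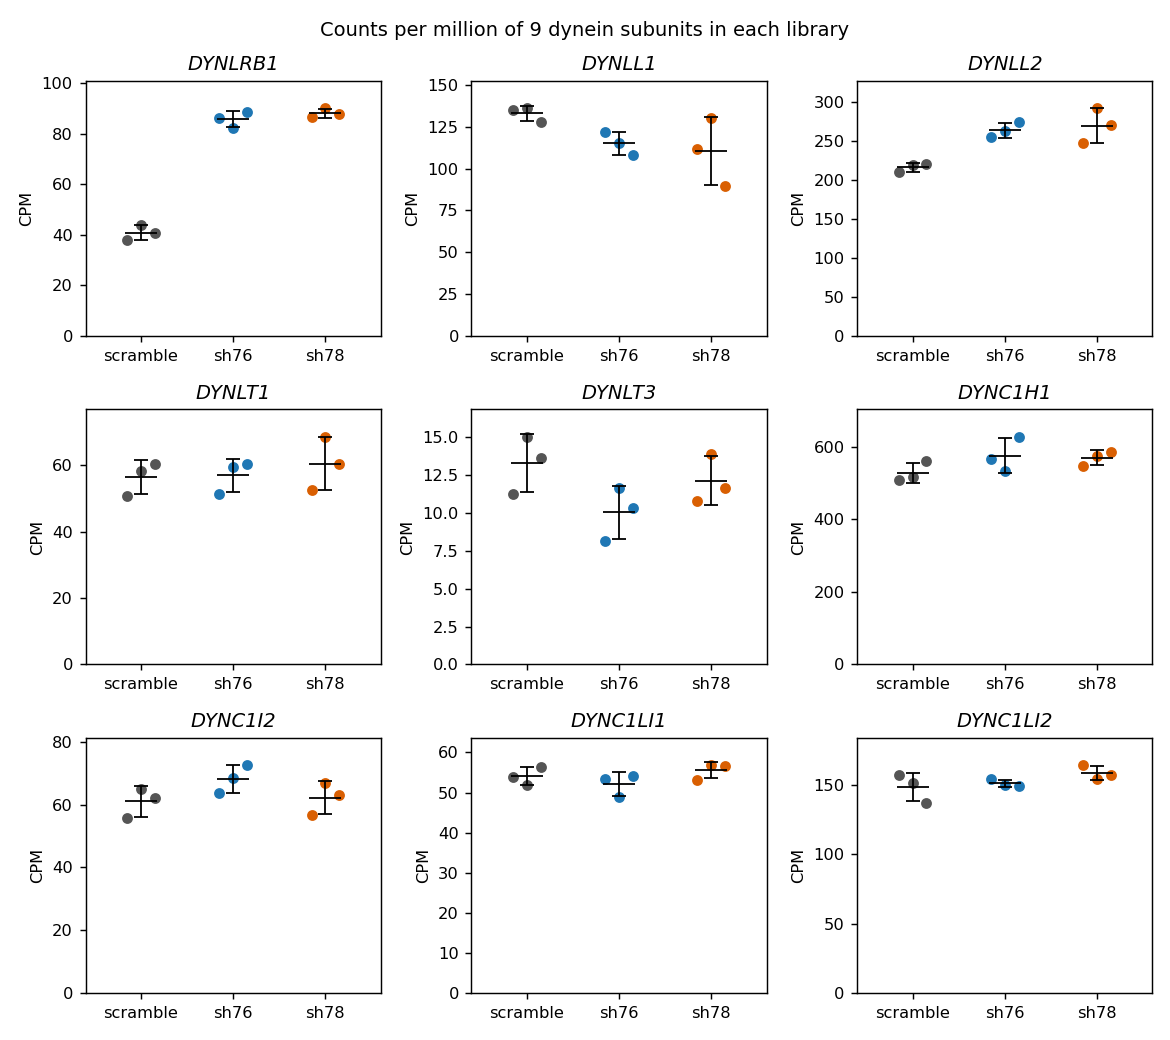
CPM (vertical axis, TMM-scaled) of 9 dynein subunits in each library, with 3 points per group for scramble, sh76 and sh78 and lines for the mean and SD; DYNLRB2, with at most 1 count, is not drawn. DYNLRB1 sits at 38.0 to 43.9 CPM with scramble and 82.3 to 90.0 CPM with the hairpins. DYNLL2 is the other subunit with both hairpin groups above scramble, as 3.57% of tested genes were.

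The LC8 light chains, encoded by DYNLL1 and DYNLL2, moved in opposite directions in their means. LC8 is a small dimeric hub protein that binds many partners besides dynein. DYNLL2 (ENSG00000264364, chr17:58083415-58095536, plus strand) had 210, 219 and 221 CPM with scramble. It had 255, 263 and 274 CPM with sh76 and 247, 292 and 270 CPM with sh78. No scramble library reached the lowest hairpin library, as was the case for 3.57% of tested genes. DYNLL2 rose by 1.22-fold with sh76 (log2 0.29, SE 0.07, 95% interval 0.15 to 0.43, edgeR adjusted p 0.0269) and was higher in 3 of 3 replicate-matched libraries. With sh78 it rose by 1.25-fold (log2 0.32, SE 0.07, 95% interval 0.18 to 0.46, edgeR adjusted p 0.0128), again in 3 of 3. The rise was smaller than that of DYNLRB1, which was chosen for its rise and had log2 changes of 1.07 and 1.11.

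DYNLL2 was the single subunit besides DYNLRB1 that was called in either comparison. That is 1 of 8 tested subunits with each hairpin, against 3.58% of all tested genes called with sh76 and 4.41% with sh78. In the higher direction the shares of all genes were 1.43% and 1.85%. The DYNLL2 call depended on single libraries: with sh76 it was lost in 5 of 9 fits without 1 library, namely each scramble replicate, sh76 replicate 2 or sh76 replicate 3 (adjusted p 0.0642 to 0.102), and on log2 FPKM with limma (adjusted p 0.0542 to 0.0589). With sh78 it was lost without sh78 replicate 2, the highest of the 9 libraries (log2 0.25, adjusted p 0.0675).

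DYNLL1 (ENSG00000088986, chr12:120469850-120498493, plus strand) had 135, 136 and 128 CPM with scramble, 122, 115 and 108 CPM with sh76, and 112, 130 and 89.8 CPM with sh78. All sh76 libraries lay below scramble, as they did for 11.7% of tested genes, while sh78 replicate 2 overlapped the scramble range. The log2 change was −0.21 with sh76 (95% interval −0.44 to 0.02, edgeR adjusted p 0.323) and −0.27 with sh78 (95% interval −0.50 to −0.04, edgeR adjusted p 0.205). In a fit blocked on the replicate number, which the libraries' shared deviations allow, DYNLL1 was called lower with both hairpins, as were 4.56% of all genes (edgeR adjusted p 0.038 and 0.00985). The antisense gene NRAV spans part of the DYNLL1 locus and had 144 to 329 counts per library. Its level was 14.7 ± 1.09 CPM with scramble, 14.1 ± 2.12 with sh76 and 10.2 ± 1.28 with sh78 (SD, n = 3; log2 −0.06 and −0.52, edgeR adjusted p 0.88 and 0.0553, with the block 0.726 and 0.0005). Its exons overlap none of the DYNLL1 exons, but without strand information reads from either gene within the other's span cannot be told apart.

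The makeup of the LC8 pair was compared as each gene's share of their summed FPKM, the deposited value scaled for gene length. The size of the share depends on these lengths. Without length scaling, DYNLL2 was the higher of the pair with scramble, at a mean of 216 CPM against 133 CPM for DYNLL1. DYNLL1 made up 59.6%, 58.9% and 57.2% of it with scramble, 52.4%, 50.1% and 47.5% with sh76, and 51.1%, 50.6% and 43.4% with sh78. Both hairpin groups lay below scramble without overlap, by 8.57 and 10.3 percentage points in the means. A 2-sided exact permutation test gave p = 0.1 for each, the smallest that 3 libraries against 3 allow, and 0.15 after Benjamini-Hochberg adjustment over the 6 shares compared. The summed LC8 level was 350 ± 5.11 CPM with scramble, 379 ± 2.09 with sh76 and 380 ± 36.5 with sh78 (SD, n = 3). The coding sequences of DYNLL1 and DYNLL2 are 79.8% identical, with at most 25 bases in a run common to their transcripts, and 7 annotated DYNLL1 copies had 0 to 2 counts each.

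The Tctex light chains DYNLT1 and DYNLT3 also have roles in cargo binding. DYNLT1 had 50.8, 58.1 and 60.3 CPM with scramble, 51.3, 59.4 and 60.3 with sh76, and 52.6, 68.5 and 60.3 with sh78. These groups overlapped almost fully, and the log2 changes were 0.02 (95% interval −0.21 to 0.24) and 0.10 (−0.12 to 0.32), with edgeR adjusted p of 0.963 and 0.703. DYNLT3, the lowest of the tested subunits per length, had 11.2, 15.0 and 13.6 CPM with scramble, 8.14, 11.6 and 10.3 with sh76, and 10.8, 13.9 and 11.6 with sh78. Its log2 change was −0.40 with sh76 (95% interval −0.75 to −0.06, edgeR adjusted p 0.197) and −0.13 with sh78 (−0.48 to 0.21, edgeR adjusted p 0.745). With the replicate block the sh76 value was called (−0.41, edgeR adjusted p 0.00563). DYNLT1 made up 82.2% ± 1.25 of the summed Tctex FPKM with scramble, 86.1% ± 1.27 with sh76 and 84.3% ± 0.45 with sh78 (SD, n = 3; exact permutation p = 0.1 for each hairpin, the smallest possible, adjusted 0.15).

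DYNC1H1, the heavy chain that hydrolyses ATP and walks on the microtubule, had 508, 517 and 561 CPM with scramble, 567, 533 and 628 with sh76, and 548, 576 and 587 with sh78. Its ranges in the 3 groups overlapped. Its log2 change was 0.12 with sh76 (95% interval −0.02 to 0.27, edgeR adjusted p 0.376, with the replicate block 0.0301). With sh78 it was 0.11 (−0.04 to 0.25, edgeR adjusted p 0.46, with the block 0.0546). An interval that ends at 0.27 or 0.25 does not reach the change seen for DYNLRB1, a gene chosen for its rise.

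DYNC1I2, the intermediate chain that carries the light chains, had 55.6, 65.1 and 62.2 CPM with scramble, 63.7, 68.3 and 72.5 with sh76, and 56.6, 67.0 and 62.9 with sh78. Its log2 changes were 0.16 (95% interval −0.02 to 0.35, edgeR adjusted p 0.36, with the block 0.031) and 0.03 (−0.16 to 0.21, edgeR adjusted p 0.923). A gene copy, DYNC1I2P1 on chromosome 10, had 48 to 84 counts per library, and reads common to both could be split between them in the counts. DYNC1I1, the intermediate chain typical of neurons and not in the list, had 1 to 10 counts per library and was not tested.

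The light intermediate chains DYNC1LI1 and DYNC1LI2 link the heavy chain to activating adaptors. DYNC1LI1 had 54.0, 51.9 and 56.4 CPM with scramble, 53.4, 48.8 and 54.2 with sh76, and 53.2, 56.8 and 56.6 with sh78. DYNC1LI2 had 157, 151 and 137 CPM with scramble, 154, 150 and 149 with sh76, and 164, 154 and 157 with sh78. For both genes each hairpin group overlapped scramble. The sh78 libraries of DYNC1LI2 all lay above the sh76 libraries, as they did for 10.9% of tested genes, with a log2 difference of 0.07 (95% interval −0.07 to 0.20, edgeR adjusted p 0.678). The log2 changes of DYNC1LI1 were −0.05 (95% interval −0.21 to 0.11) and 0.04 (−0.12 to 0.20), and those of DYNC1LI2 were 0.03 (−0.11 to 0.16) and 0.09 (−0.04 to 0.23). None of these 4 values was called (edgeR adjusted p 0.504 to 0.884). DYNC1LI1 made up 33.0%, 31.7% and 32.1% of the summed FPKM of the pair in the 3 groups (exact permutation p = 0.7 for each hairpin).

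**Figure D2:**
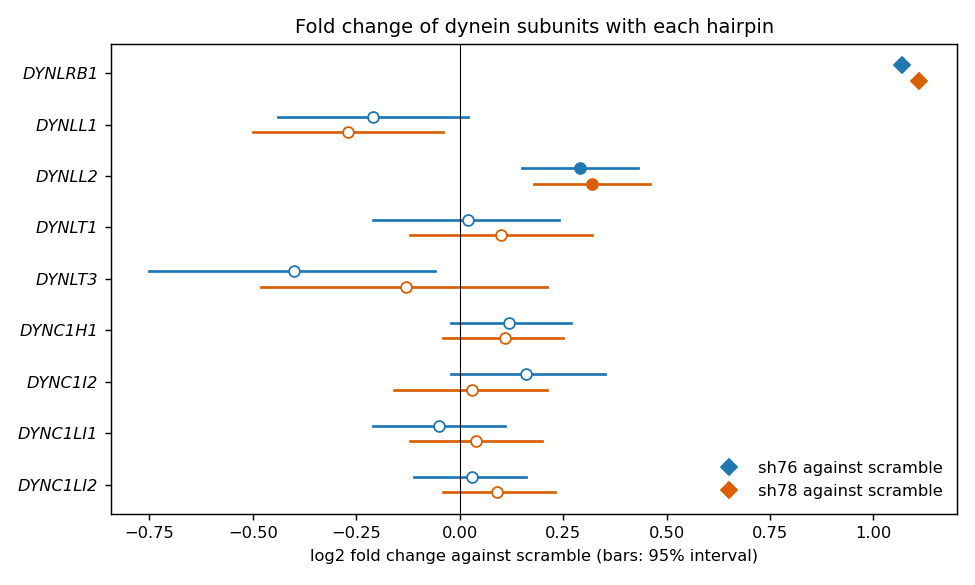
Log2 fold change against scramble (horizontal axis) of the tested subunits with sh76 and with sh78, with bars for the 95% interval from the edgeR fit. The intervals of the 8 subunits other than DYNLRB1 end at or below 0.43 with sh76 and 0.46 with sh78. DYNLRB1, chosen for its rise, sits at 1.07 and 1.11.

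By the test used, DYNLL2 was also called with each hairpin, as 1 of 8 tested subunits, where 3.58% and 4.41% of all genes were called. That call was lost in 5 of 9 fits without 1 library with sh76, and in 1 of 9 with sh78. Whether the rise extended beyond DYNLRB1 was therefore not settled. No other subunit came near the size of the DYNLRB1 change, but DYNLRB1 was chosen for its rise. Over the 8 others the median log2 change was 0.02 with sh76 and 0.07 with sh78, against 0.01 and 0.01 over all tested genes. At an unadjusted p under 0.05 there were 2 of 8 in each comparison, where 17.4% of all genes passed with sh76 and 17.5% with sh78. With the replicate block the called subunits were 3 higher (DYNLL2, DYNC1H1, DYNC1I2) and 2 lower (DYNLL1, DYNLT3) with sh76, where 20.4% of all genes were called. With sh78 they were DYNLL2 higher and DYNLL1 lower, where 19.9% were called.

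The hairpins were also compared directly. For sh78 against sh76, edgeR called 0 of the 8 tested subunits other than DYNLRB1, against 3.70% of all genes. DESeq2 also called 0, and so did the fit with the replicate block, which called 3117 of all 17023 tested genes. None of these 8 had an unadjusted p under 0.05, as 16.3% of all genes did, and their log2 differences ran from −0.13 to 0.27. The widest of their intervals was that of DYNLT3 (−0.08 to 0.61), so a moderate difference in this subunit could not be settled with 3 libraries per group. The intervals of the others were narrower. Their lowest end was −0.32, for DYNC1I2, and their highest was 0.30, for DYNLT1.

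Replicates shared deviations across groups in several subunits. Replicate 1 was the lowest of the 3 in every group for DYNLL2, DYNLT1, DYNLT3 and DYNC1I2, and replicate 3 was the lowest in every group for DYNLL1. Replicate 1 was lowest in all 3 groups for 15.0% of tested genes. DYNLRB1, DYNC1H1, DYNC1LI1 and DYNC1LI2 had no such common order.

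Levels of different subunits were compared per length, as FPKM. The length is the deposited gene length, 36852 bases for DYNC1H1 and 2460 for DYNLRB1, so the order depends on it. Without length scaling, DYNC1H1 had a mean of 529 CPM and DYNLRB1 40.9 CPM with scramble. With scramble the order was DYNLL1 (44.8 ± 1.28, mean ± SD, n = 3), DYNLL2 (31.6 ± 0.913), DYNLT1 (19.0 ± 1.74), DYNC1LI2 (17.8 ± 1.16), DYNLRB1 (16.5 ± 1.20), DYNC1H1 (14.3 ± 0.839), DYNC1I2 (12.9 ± 1.04), DYNC1LI1 (8.77 ± 0.404), DYNLT3 (4.14 ± 0.599) and DYNLRB2 (mean 0.0132). Of these neighbours, DYNLT1 and DYNC1LI2, DYNC1LI2 and DYNLRB1, and DYNC1H1 and DYNC1I2 overlapped between libraries. By FPKM, DYNLRB1 was rank 5 with scramble and rank 3 with each hairpin.

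With sh76 DYNLRB1 reached 34.5 ± 1.34 FPKM, below DYNLL1 (38.5 ± 2.38) and DYNLL2 (38.4 ± 1.41), which overlapped each other. With sh78 it reached 35.5 ± 0.782 FPKM, and its libraries overlapped those of both DYNLL2 (39.4 ± 3.37) and DYNLL1 (37.2 ± 6.83). DYNLT1, next in order, stood at 19.1 ± 1.68 and 20.4 ± 2.72 FPKM (SD, n = 3). DYNLRB1's share of the summed FPKM of the 10 subunits was 9.30%, 10.2% and 9.66% in the scramble libraries. It was 18.4%, 17.6% and 18.4% with sh76 and 18.9%, 17.5% and 19.0% with sh78. These shares are RNA proportions per length, so their size depends on the deposited gene lengths. They carry no test, since DYNLRB1 was chosen for its rise. In bulk RNA, fewer cells expressing a gene and less RNA per cell cannot be told apart.

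**Figure D3:**
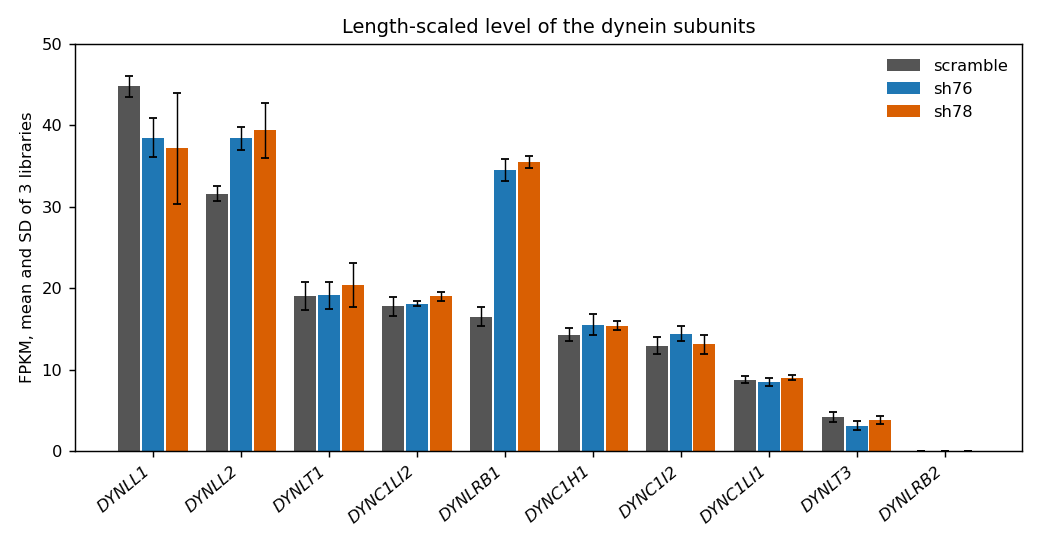
FPKM (vertical axis) of the 10 subunits in order of their FPKM with scramble, as the mean of 3 libraries per group with SD bars. The order depends on the deposited gene lengths. DYNLRB1 moves from 16.5 FPKM with scramble to 34.5 and 35.5 with the hairpins, next to the LC8 light chains DYNLL1 and DYNLL2.

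The partners of the motor were read from lists of related genes. Dynactin is the cofactor that dynein needs for long movement. Its 12 genes were all tested, and edgeR and DESeq2 called 0 with either hairpin, where 3.58% and 4.41% of all genes were called by edgeR. At an unadjusted p under 0.05 there were 1 with sh76 and 2 with sh78, where 17.4% and 17.5% of all genes passed. The median log2 changes of the 12 genes were −0.03 and −0.03 against 0.01 over all genes. The lowest and highest values were −0.25 and 0.17 with sh76, and −0.18 and 0.17 with sh78. With the replicate block, under which 20.4% and 19.9% of all genes were called, ACTR1B was called lower with sh76 (−0.25, edgeR adjusted p 0.000675). With sh78, DCTN1 was then called higher (0.17, 0.00737), and ACTR10 (−0.18, 0.0399) and CAPZA2 (−0.16, 0.0192) lower.

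The 5 regulators PAFAH1B1, NDE1, NDEL1, NUDC and NUMA1 tune the motor or anchor it in mitosis. They had 0 calls by edgeR and by DESeq2 with either hairpin, where edgeR called 3.58% and 4.41% of all genes. They also had 0 at an unadjusted p under 0.05, where 17.4% and 17.5% of all genes passed. Their median log2 changes were 0.04 and 0.07. NUMA1 was called higher with sh78 under the block (0.13, edgeR adjusted p 0.0268), where 19.9% of all genes were called.

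Of the 19 activating adaptors and cargo links, 18 were tested, and none was called in the same direction with both hairpins. TRAK1 and TRAK2 are mitochondrial adaptors. TRAK2 was called lower with sh76 (82.2 ± 5.70 against 66.2 ± 3.08 CPM, SD, n = 3, log2 −0.31, edgeR adjusted p 0.0379), and its value with sh78 was −0.11 (adjusted p 0.511). TRAK1 was called higher with sh78 (196 ± 5.85 against 230 ± 1.10 CPM, log2 0.23, edgeR adjusted p 0.0335), and its value with sh76 was −0.09 (adjusted p 0.429). Each of these calls was lost in 6 of the 9 fits without 1 library. They were chosen for naming after their values were seen. With the replicate block the list had 1 higher and 3 lower with sh76 and 2 higher and 1 lower with sh78, against the same 20.4% and 19.9% of all genes, HOOK3 being higher in both (0.16 and 0.27, edgeR adjusted p 0.0385 and 0.000462).

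Cytoplasmic dynein 2, the motor of transport inside cilia, shares the roadblock, LC8 and Tctex light chains with dynein 1. None of its 5 own subunits was called by edgeR with either hairpin, where 3.58% and 4.41% of all genes were called. With each hairpin 1 of the 5 had an unadjusted p under 0.05, against 17.4% and 17.5% of all genes. DESeq2 called 0 with sh76 and 1 with sh78. Its heavy chain DYNC2H1 had 0.37 with sh78 (edgeR adjusted p 0.0652, with the block 0.000277), and WDR34 had −0.22 with sh76 (0.105, with the block 0.00095). Of 16 axonemal dynein genes, which build the arms of motile cilia, 13 were tested. Of these, 0 were called by edgeR or DESeq2, where edgeR called 3.58% and 4.41% of all genes. An unadjusted p under 0.05 was found for 1 and 2 of them, against 17.4% and 17.5% of all genes. Their medians were 0.08 and 0.10. Under the block DNAH5 and DNAH11 were called higher with sh76 (0.57 and 0.36, edgeR adjusted p 0.00124 and 0.00778), where 20.4% of all genes were called. FOXJ1, the regulator of motile cilia, fell with both hairpins (30.8 ± 3.89 with scramble, 10.8 ± 2.14 with sh76, 11.1 ± 3.68 CPM with sh78, SD, n = 3, log2 −1.51 and −1.47, edgeR adjusted p 0.0037 and 0.00346). It was 1 of the 3 markers of multiciliated cells to be called. TPPP3 had 2.64, 1.20 and 1.72 CPM in the 3 groups (log2 −1.15 and −0.64, edgeR adjusted p 0.0873 and 0.358, called with sh76 under the block at 0.00318). PIFO had 0.664, 0.419 and 0.900 CPM (log2 −0.62 and 0.41, edgeR adjusted p 0.581 and 0.727). The 3 markers, nearly all FOXJ1 by level, summed to 30.7 to 38.3 CPM with scramble, 10.1 to 14.0 with sh76 and 10.5 to 15.6 with sh78. The part of this shift in the light-chain values was not tested.

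The genes whose pattern was closest to DYNLRB1 over the 9 libraries were found by Pearson correlation of log2 CPM across all tested genes. They were HSD17B10 (r = 0.990), a mitochondrial dehydrogenase, TMED4 (0.981), a cargo protein of the early secretory pathway, MAPRE3 (0.979), which binds growing microtubule ends, GINS3 (0.978), a part of the replicative helicase, and DMTN (0.978), an actin-bundling protein. The 9 points share libraries and scaling, and the genes were picked as the closest of all those tested, so these values are a description. The level of HSD17B10 was 39.1 ± 0.67 CPM with scramble, 98.6 ± 6.16 with sh76 and 95.7 ± 6.04 with sh78 (SD, n = 3). TMED4 had 57.5 ± 1.63, 91.4 ± 2.12 and 88.2 ± 2.48 CPM. MAPRE3 had 12.4 ± 1.03, 19.5 ± 1.41 and 19.1 ± 0.648 CPM. In each, as in GINS3 (6.64 ± 0.136, 8.59 ± 0.122 and 8.63 ± 0.405) and DMTN (42.0 ± 1.58, 72.1 ± 0.625 and 67.7 ± 3.95), both hairpin means stood above scramble and near each other.

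**Figure D4:**
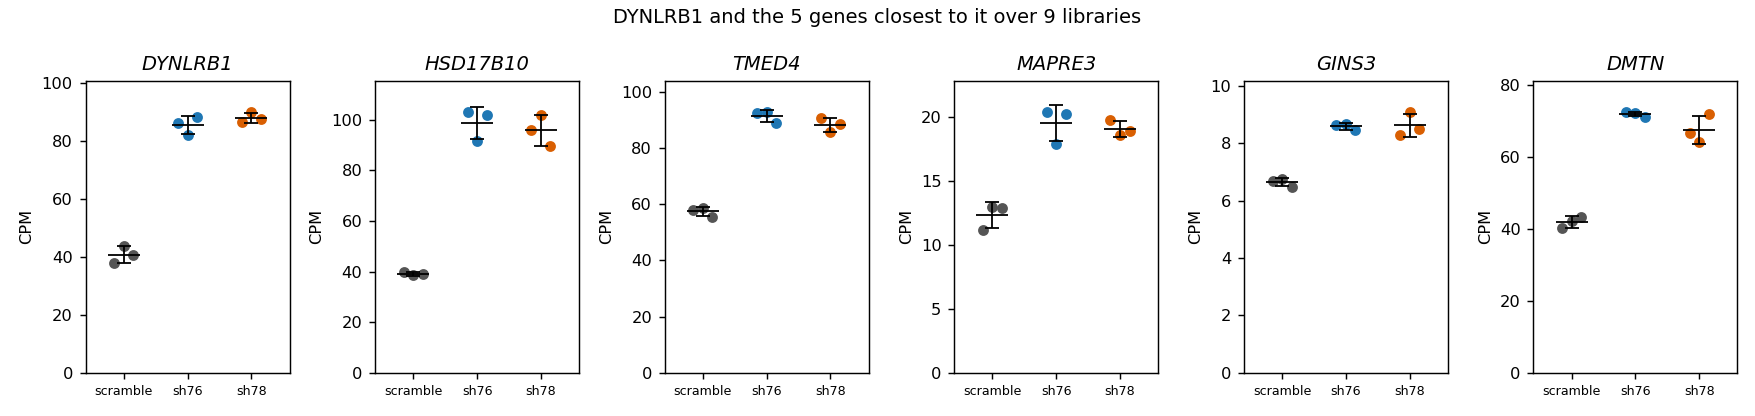
CPM (vertical axis) of DYNLRB1 and the 5 genes with the highest correlation to it, with a point for each of 3 libraries per group and lines for the mean and SD. All 6 show low scramble libraries and hairpin groups at similar levels, and HSD17B10 and DYNLRB1 have the widest step (39.1 to 98.6 and 40.9 to 85.7 CPM in the means of scramble and sh76).

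All 5 of these genes held the 7-mer GTCGCCC in a 3′ UTR, as did DYNLRB1. The windows of 3 of them are shown to set beside that of DYNLRB1, with the 7-mer in capitals, on the transcript strand of GRCh38.
HSD17B10 (chrX:53431292-53431298, minus strand): actgcctaccaGTCGCCCtctgtgcctaa
MAPRE3 (chr2:27026603-27026609, plus strand): ctctctgctgtGTCGCCCaacacttccca
GINS3 (chr16:58405271-58405277, plus strand): ttccaaaaacaGTCGCCCagataaaggag
Apart from the 7-mer these windows differ from that of DYNLRB1. The 7-mer was picked on these data as one that marks genes lower with scramble, so the shares that follow restate that choice and support nothing. Of the 684 tested genes with the 7-mer in a 3′ UTR, 6.73% were called higher with sh76 and 8.77% with sh78, against 1.48% and 2.22% of all 13632 genes with a 3′ UTR. In the lower direction the shares were 1.61% and 1.90% against 2.60% and 3.01%. For sh78 against sh76 the higher share was 1.75% against 2.40%. DYNLL2, which rose, held no match. The part of the 7-mer in the DYNLRB1 rise was not tested.

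The genes around DYNLRB1 on chromosome 20 were read from the same fit. Of the 14 other tested genes within 500 kb, edgeR called 0 higher with either hairpin, where 1.43% and 1.85% of all genes were called higher. With sh76 it called 0 lower, and 4 of the 14 had an unadjusted p under 0.05, where 17.4% of all genes did. Under the replicate block, where 20.4% of all genes were called, EIF2S2, MAP1LC3A, GGT7 and GSS were lower. With sh78 edgeR called EIF2S2 (−0.31, edgeR adjusted p 0.00687) and ITCH (−0.37, edgeR adjusted p 0.00731) lower, where 4.41% of all genes were called in either direction. They were joined by ACSS2 and GSS under the block, where 19.9% of all genes were called. The medians were −0.10 and −0.07. The nearest tested gene before DYNLRB1 is ITCH, a ubiquitin ligase that ends 5016 bases upstream and had −0.01 with sh76. The nearest after it is MAP1LC3A, an autophagy protein that starts 5896 bases downstream and had −0.57 with sh76 (edgeR adjusted p 0.0571, with the block 0.00278) and 0.20 with sh78 (0.565). No annotated gene with more than 2 counts in a library overlaps DYNLRB1.

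**Figure D5:**
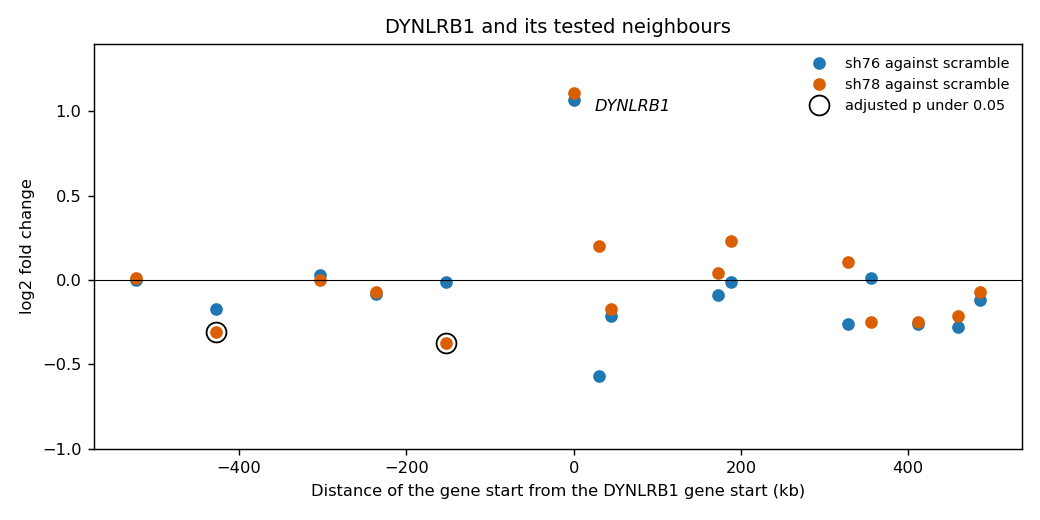
Log2 fold change against scramble (vertical axis) of DYNLRB1 and its tested neighbours by the distance between gene starts in kb (horizontal axis), with sh76 and sh78 as separate points and rings around neighbours called by edgeR. DYNLRB1 stands at 1.07 and 1.11, and the neighbours lie between −0.57 and 0.23.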

How the data were processed

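RNA-seq of 9 OVCAR3 samples, 3 per group, was analysed from 2 deposited tables. The authors deposited counts per gene and FPKM values per gene for 58735 genes; per the submitters' processing notes, HISAT2 2.0.5, featureCounts 1.5.0-p3 and hg38 were used, and per the labels' protocols the poly-A libraries were non-directional. The deposited FPKM values equal the counts over gene length and a library size of 98.09% to 102.97% of the total count. Settings for reads matching several genes are not given in the sources used here. All 58735 identifiers were found in GENCODE release 29, 58724 of them with the same start and end.

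The count tests used edgeR 4.0.16 under R 4.3.3 (filterByExpr with minimum count 10 and minimum total 15, TMM, robust quasi-likelihood fit, 1 coefficient per group over 9 samples, biological coefficient of variation 10.4%). Genes were called at a Benjamini-Hochberg adjusted p under 0.05 over 17023 genes. The procedure was tested on simulated data. Total counts of 14652965 to 21327562 set the precision, and replicate pairs of every group differed by more than sampling noise (chi-square per degree of freedom 4.90 to 11.1).

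Replicate numbers pair the samples: deviations from the group means correlated at 0.14 to 0.39 in all 9 same-number pairs and at −0.31 to 0.06 in the 18 others. Values from the fit with the replicate block are given where they change a call of a member. For list genes, neighbours and markers, changed calls against scramble are given as values, names or counts. Their changed calls for sh78 against sh76 are not listed. Alternatives were DESeq2 1.42.0, limma 3.58.1 on log2 FPKM with a pseudocount of 1 or 0.1, other scaling and filtering, the 2 compared groups alone, and each library left out. The members and gene lists were chosen with earlier results of these data known. Named were all members, list genes called in both hairpins in the same direction, the 5 genes with the highest correlation to DYNLRB1, genes overlapping a member, copies and nearest neighbours. The sequence around some matches of the 7-mer is not reported here. List genes called in 1 comparison or under the block were named after their values were seen.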

Additional observations from a re-analysis of the deposited data

Results flagged for a closer look

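In the direct comparison of sh78 with sh76, 6 genes named among the targeted gene, the motor's partners and the neighbours of DYNLRB1 differed by the edgeR test, and none of the subunits did. Besides GPX3 they were 2 of 18 tested adaptors, and 2 higher and 1 lower of 14 tested neighbours. Of all tested genes, 3.70% were called. The tested genes of dynactin (12), the regulators (5), dynein 2 (5) and axonemal dynein (13) had 0 calls. GPX3 was lower with sh78 (log2 −0.86, adjusted p 0.0194). Among adaptors, NINL, which ties dynein to centrosomes, was higher with sh78 (21.0 ± 2.13 CPM with scramble, 17.5 ± 1.32 with sh76 and 23.9 ± 1.69 with sh78, SD, n = 3, log2 0.45, edgeR adjusted p 0.0373). TRAK1 was also higher with sh78 than with sh76 (184 ± 7.41 against 230 ± 1.10 CPM, log2 0.32, edgeR adjusted p 0.00562). Of the neighbours, ITCH was lower with sh78 (122 ± 6.63 against 94.6 ± 6.12 CPM, log2 −0.36, edgeR adjusted p 0.00959). MAP1LC3A was higher (5.58 ± 0.861 against 9.56 ± 0.832 CPM, log2 0.77, edgeR adjusted p 0.0121), as was GGT7, a gamma-glutamyltransferase family member (30.9 ± 1.73 against 39.8 ± 0.497 CPM, log2 0.36, edgeR adjusted p 0.0238). Each difference had the same direction in 3 of 3 replicate-matched libraries.

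Leaving out 1 library ended the NINL and the GGT7 call in 6 of 9 fits each (adjusted p 0.0521 to 0.152 and 0.051 to 0.101). It ended the ITCH call without sh78 replicate 2 (0.0519) and the MAP1LC3A call without sh78 replicate 1 (0.0569). The TRAK1 call held in all 9 fits (highest adjusted p 0.0399).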

How the results depend on the processing

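Of 459 subunit values under the alternatives, 431 were unchanged, 9 lost a call, 7 gained one and 12 changed sign, all 12 in fits without 1 library and with values near 0. Unchanged values kept their direction and their side of the threshold. For DYNLRB1 against scramble, which was not tested, they kept their direction and moved by less than the larger SD of its log2 CPM in the compared groups. DYNLRB1 stayed between 1.01 and 1.12 with sh76 and between 1.05 and 1.16 with sh78 (log2) over 18 settings. Leaving out each library in turn gave ranges that cross or touch 0 for several subunits. With sh76 they were −0.06 to 0.08 for DYNLT1 and −0.03 to 0.06 for DYNC1LI2. With sh78 they were 0.00 to 0.19 for DYNLT1, −0.04 to 0.09 for DYNC1I2 and 0.00 to 0.07 for DYNC1LI1, the last without a change of sign. For sh78 against sh76 they were −0.18 to 0.08 for DYNLL1, −0.03 to 0.09 for DYNLL2, −0.02 to 0.18 for DYNLT1 and −0.07 to 0.05 for DYNC1H1. Of the subunits besides DYNLRB1, 1 was called with sh76; this became 0 on log2(FPKM + 1), on log2(FPKM + 0.1) and with a mean FPKM of at least 1, and 5 with the replicate block, with 0 to 1 without single libraries. With sh78, 1 was called; this became 2 with no low-count filter, DYNLL1 being added (adjusted p 0.0207), and 2 with the replicate block, with 1 in every fit without 1 library. Without sh78 replicate 2 that gene was DYNLL1 (−0.40, adjusted p 0.0467) in place of DYNLL2. Genes called with sh76 (610) became 1149 with no filter, 401 at a mean FPKM of at least 1, 3467 with the replicate block and 237 to 655 without single libraries. With sh78 (750) they became 1212 with no filter, 3388 with the block and 418 to 810 without single libraries. For sh78 against sh76 (629) they became 1125, 387, 3117 and 273 to 780. The lowest counts came without sh76 replicate 2 (237 and 273) and without scramble replicate 2 (418). The causes were not tested. With 3 libraries per group, subunit changes as small as those of DYNC1H1 and DYNC1I2 were not called unless the block was in the fit.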
